A study of Mus with 4 samples.

Results

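Collagen chain genes were followed across 4 arrays of mouse tumors that differed in the hairpin carried by the tumor cells and in the diet of the host. The members are all genes whose symbol on the array platform is Col, a number, a and a number. This rule found 42 of the 19505 named genes, each with 1 probe set. Of the known mouse chains, Col7a1 and Col12a1 have no probe set of that name in the annotation used here and were not analysed. The tumor cells were of Renca, a mouse line of renal adenocarcinoma, stably expressing 1 of 2 short hairpin RNAs, named shNrf3 for its target and shCtrl for the control. Nrf3 is a transcription factor encoded by Nfe2l3. The cells were placed under the skin of the flank of male BALB/cCrSlc mice, bought at 4 to 6 weeks of age and fed normal chow (NC, CE-2) or a high-fat diet (HFD, HFD-60) for 17 weeks, and tumors were taken 2 weeks after injection. Each hairpin was studied in each diet, with 1 array for each of the 4 groups. Where 4 values stand in a row they follow the order shCtrl-NC, shNrf3-NC, then shCtrl-HFD and last shNrf3-HFD. The hairpin was in the injected cells only, so host fibroblasts, vessels, fat and muscle in the tumor did not carry it. Nothing in the labels tells whether tumors were pooled for an array or how many clones the cell lines came from.

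Collagens are secreted proteins whose chains wind around each other in trimers and form the scaffold of the extracellular matrix. Fibrillar collagens (types I, III, V and others) build the cables of connective tissue, type IV forms the sheet of basement membranes around epithelium and vessels, and type VI forms beaded filaments that link cells to the fibrils. FACIT collagens decorate the surface of fibrils, multiplexins (types XV and XVIII) sit in basement membrane zones, and transmembrane collagens stay anchored in the cell surface. In tumors the fibrillar chains are made mainly by fibroblasts, while endothelial and epithelial cells contribute to the basement membrane.

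Values are log2 levels, and a difference of 1 is 2-fold. With 1 array per group a single difference has no replicate check, and precision is limited by having so few arrays. Rows that the array names as negative controls had medians of 5.35 to 5.39 and 95th percentiles of 8.97 to 9.35. The targeted gene Nfe2l3 read 6.22, 5.56, 5.77 and 6.05. It thus lay near the controls on all 4 arrays and was lower with shNrf3 in NC but higher in HFD, so it does not bear out the labels, and each direction below is that of the libraries as labelled. Epithelial markers of the tumor cells were high (Krt18 at 14.46 to 15.90 and Cdh1 at 13.34 to 14.64), while the renal factors Pax8 and Pax2 lay below the control median on every array. The array labelled shNrf3-NC was high in adipocyte genes (mean of 6 markers 11.18, against 9.05, 9.99 and 8.63 on the other 3) and in skeletal muscle genes. Of 12 muscle markers 8 passed the filter, some only through that array. Those above the control median on all 4 arrays were Tnnt3 (11.57 on shNrf3-NC against 8.15 to 9.90), Tnni2 (9.92 against 7.18 to 7.49) and Ckm (8.23 against 5.95 to 6.42).

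Of the 42 genes 24 passed a filter on the mean level over the arrays (5.73, the median of all rows). These were 6 of 11 fibrillar genes, 2 of 6 type IV genes, 3 of 6 type VI genes, 5 of 8 FACIT genes, 2 of 2 multiplexins, 3 of 4 transmembrane genes, the pair of type VIII genes and Col28a1. Just inside the filter lay Col23a1 and Col22a1 with means of 5.76, and just outside lay Col9a1 with 5.65. Of the 18 genes below it, 14 read under the control median on all 4 arrays, among them the cartilage collagen gene Col2a1, the hypertrophic cartilage gene Col10a1 and Col4a3 and Col4a4 of the kidney filter. The other 4 were Col4a5, Col6a4, Col6a5 and Col9a1, and of these Col6a5 read 6.67 on the shCtrl-NC array and 4.66 to 5.23 on the others. No difference is read from these 18 genes.

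The 24 genes fell into 10 brighter ones, with a mean at or above 8.45 (the 75th percentile of all rows), and 14 dimmer ones. The brighter genes were Col1a1, Col1a2, Col3a1 and Col5a2 (fibrillar), Col4a2 (basement membrane), Col6a1, Col6a2 and Col6a3 (type VI), Col16a1 (FACIT) and Col18a1 (multiplexin). Of these 7 exceeded the control 95th percentile on all 4 arrays and 3 (Col4a2, Col5a2 and Col6a2) on some. None of the 14 dimmer genes exceeded it on any array.

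**Figure D1:**
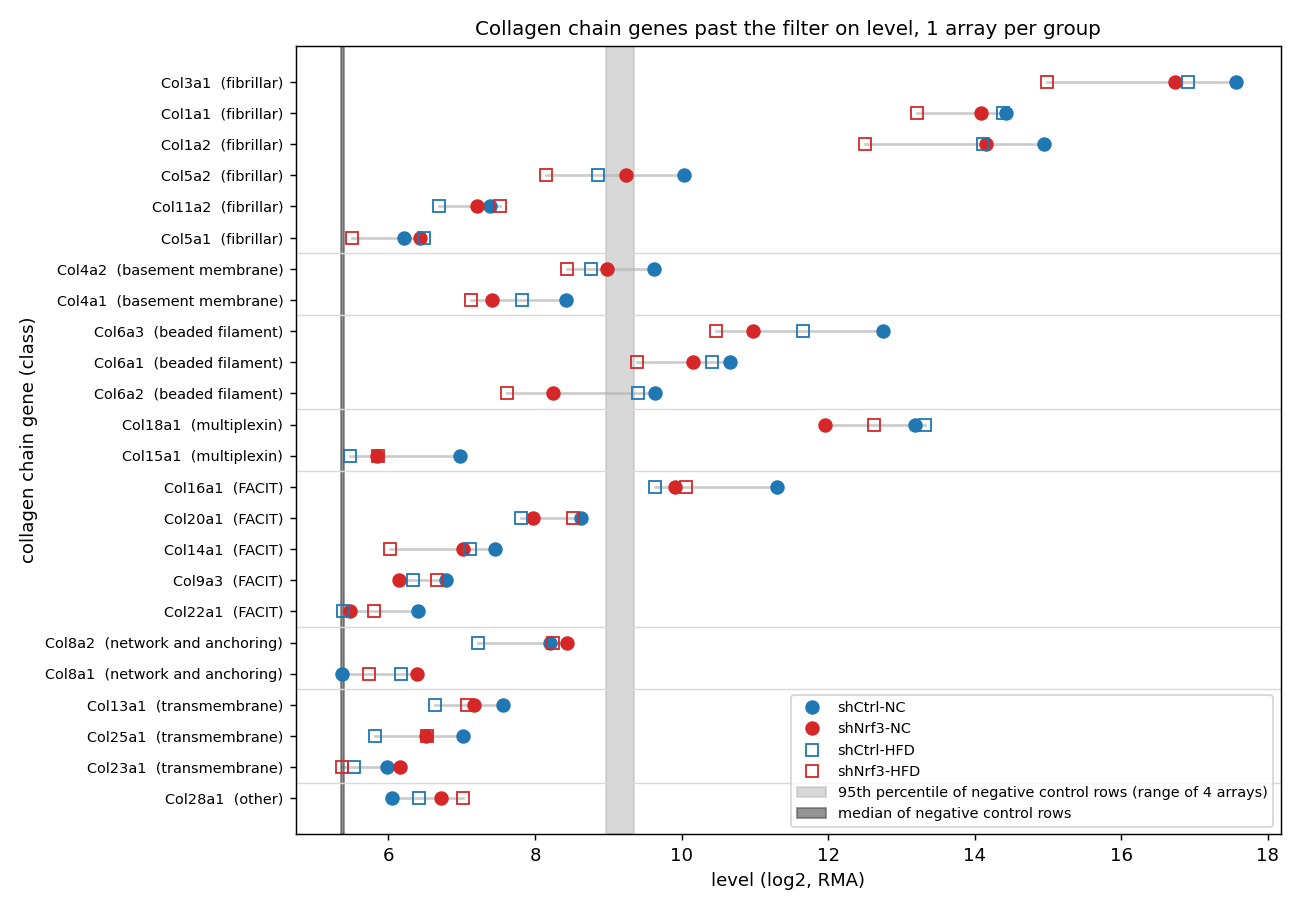
Log2 level (horizontal axis) of the 24 collagen genes past the filter, by class, with 1 point for each of the 4 arrays, and gray bands for the median and the 95th percentile of negative control rows. Of the 10 brighter genes 9 read highest on shCtrl-NC (filled blue circles) and 8 lowest on shNrf3-HFD (open red squares).

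The brighter collagen genes shared an order of arrays. Of the 10, 9 read highest on shCtrl-NC and 8 lowest on shNrf3-HFD. Among all 5475 named genes at or above the same level, 18% were highest on shCtrl-NC and 21.3% lowest on shNrf3-HFD. The mean level of the 10 was 12.41 on shCtrl-NC, 11.44 on shNrf3-NC, 11.75 on shCtrl-HFD and 10.74 on shNrf3-HFD. The exceptions were Col18a1, highest on shCtrl-HFD and lowest on shNrf3-NC, and Col16a1, lowest on shCtrl-HFD. After cyclic loess, centring or quantile scaling 10 of 10 were highest on shCtrl-NC (32.9%, 30.6% and 33.4% of all genes at that level). On shNrf3-HFD 8 were lowest after each (21.6%, 17.3% and 19.2%).

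Among the fibrillar genes, the interstitial chains of types I and III read lowest on shNrf3-HFD. Col3a1, the chain of type III collagen, read 17.56 on shCtrl-NC, 16.73 on shNrf3-NC, 16.91 on shCtrl-HFD and 14.99 on shNrf3-HFD. Col1a2, the second chain of type I collagen, read 14.94, 14.15, 14.12 and 12.50 and its partner Col1a1 read 14.43, 14.09, 14.39 and 13.21. For all 3 genes the shNrf3-HFD array stood below the other 3 arrays, which lay closer together. With shNrf3 against shCtrl in HFD, Col3a1 was 3.80-fold lower (difference -1.92), Col1a2 3.07-fold lower (-1.62) and Col1a1 2.25-fold lower (-1.17). In NC the same differences were smaller, at -0.83, -0.79 and -0.34.

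The type V chains, which set fibril diameter, differed from each other. Col5a2 read 10.03, 9.24, 8.86 and 8.15. Its differences were nearly the same in both backgrounds, -0.79 and -0.71 for the construct in NC and HFD and -1.17 and -1.09 for the diet with shCtrl and shNrf3. Its partner Col5a1 read 6.21, 6.44, 6.49 and 5.50, close to the controls, and was lower on the shNrf3-HFD array alone. Col11a2, a minor fibrillar chain of cartilage that other tissues also express, read 7.39, 7.21, 6.69 and 7.52 and was the only fibrillar gene past the filter that was not lowest on shNrf3-HFD.

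All 3 type VI genes past the filter read lower with shNrf3 in both diets. Col6a3, the longest chain of the trimer, read 12.75 on shCtrl-NC and 10.97 on shNrf3-NC, and 11.65 on shCtrl-HFD and 10.47 on shNrf3-HFD. Col6a2 read 9.63 and 8.24 in NC and 9.41 and 7.61 in HFD, and Col6a1 read 10.66 and 10.15 in NC and 10.42 and 9.38 in HFD. In each gene both shNrf3 arrays lay below both shCtrl arrays. Col6a2 was 2.63-fold lower with shNrf3 in NC (-1.40) and 3.47-fold lower in HFD (-1.79). Col6a3 was 3.44-fold lower (-1.78) and 2.28-fold lower (-1.19). Col6a1 was less than 2-fold lower in NC (-0.51) and 2.05-fold lower in HFD (-1.03). Between diets Col6a1, Col6a2 and Col6a3 differed by -0.24, -0.23 and -1.10 with shCtrl and by -0.77, -0.63 and -0.50 with shNrf3.

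The type IV genes Col4a1 and Col4a2 encode the common network of basement membranes and ran in parallel. Col4a1 read 8.43, 7.41, 7.82 and 7.12, and Col4a2 read 9.62, 8.98, 8.77 and 8.44. Both were highest on shCtrl-NC and lowest on shNrf3-HFD. Their construct differences were -1.02 and -0.65 in NC and -0.70 and -0.33 in HFD, and their diet differences -0.61 and -0.86 with shCtrl and -0.29 and -0.54 with shNrf3. The chains thus stood 0.37 apart for the construct in each diet and 0.25 apart for the diet with each construct. For comparison, Col1a1 and Col1a2 stood 0.45 apart for the construct in each diet and 0.78 apart for the diet with each construct.

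The multiplexin and FACIT genes among the brighter members followed other orders. Col18a1, whose chain releases the fragment endostatin, read 13.19 on shCtrl-NC, 11.96 on shNrf3-NC, 13.31 on shCtrl-HFD and 12.63 on shNrf3-HFD. It was lower with shNrf3 in both diets (-1.23 and -0.69) and was not lower on HFD (0.12 with shCtrl and 0.67 with shNrf3). Col16a1, a FACIT chain, read 11.31 on shCtrl-NC against 9.63 to 10.05 on the other 3 arrays, so that it was lower by construct in NC (-1.40) and by diet with shCtrl (-1.67) but not in the comparisons without the shCtrl-NC array (0.42 and 0.14). Col15a1, the other multiplexin and a dim one, read 6.98 on shCtrl-NC and 5.47 to 5.86 elsewhere. All 5 mural and smooth muscle markers past the filter likewise read highest on shCtrl-NC, among them the actin gene Acta2 (12.30 against 11.07 to 11.74). So did 17 of the 24 collagen genes and 20.8% of all genes past the filter.

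Counted over the 24 genes, members 2-fold or more lower with shNrf3 outnumbered those 2-fold or more higher in both diets. Below 0 were 19 of the 24 in NC and 14 in HFD, against 4204 and 6106 of all 10021 genes past the filter. The split in HFD was thus near that of all genes. Among the 10 brighter genes 4 had a reading lower by 2-fold or more in NC, against 3.2% of the 5475 genes of that level, and 6 did in HFD, against 6.14%. None of the 10 was 2-fold or more higher in either diet, against 15.3% and 1.74%. In NC 6 of the 24 (25%) were 2-fold or more lower, against 4.52% of all 10021 genes past the filter, and 1 was higher, against 13.3%. The 6 were Col6a3, Col16a1, Col6a2, Col18a1, Col15a1 and Col4a1, and the 1 was Col8a1. Col15a1 passed the filter of 5.73 only with its high reading on shCtrl-NC, so its place in this count is not independent of the filter. In HFD 7 (29.2%) were lower, against 7.13% of all genes, and 1 was higher, against 2.55%. The 7 were Col3a1, Col6a2, Col1a2, Col6a3, Col1a1, Col14a1 and Col6a1, and the 1 was Col8a2. The medians of the 24 were -0.64 in NC and -0.38 in HFD, beside 0.14 and -0.14 over all genes past the filter. After centring each array on its median 3 were lower in HFD (Col3a1, Col6a2 and Col1a2) and 2 higher, against 3.82% and 4.8% of all genes.

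Col6a2 and Col6a3 were 2-fold or more lower in both diets, 2 of 24 genes, against 0.828% of all genes, and 0 were higher in both, against 0.838%. Of the 24 genes 11 lay below 0 in both diets and 2 (Col8a2 and Col28a1) above, against 26.5% and 23.5% of all genes. Below 0 in both diets were 9 of the 10 brighter genes, all but Col16a1, where 26.8% of the 5475 genes of that level were. The construct comparisons of the 2 diets have no array in common. With readings under the control 95th percentile raised to it, Col6a2 stood at -0.63 in NC and -0.27 in HFD, and after centring Col6a3 stood at -0.97 in HFD, so that each then left the genes past 2-fold in both diets.

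**Figure D2:**
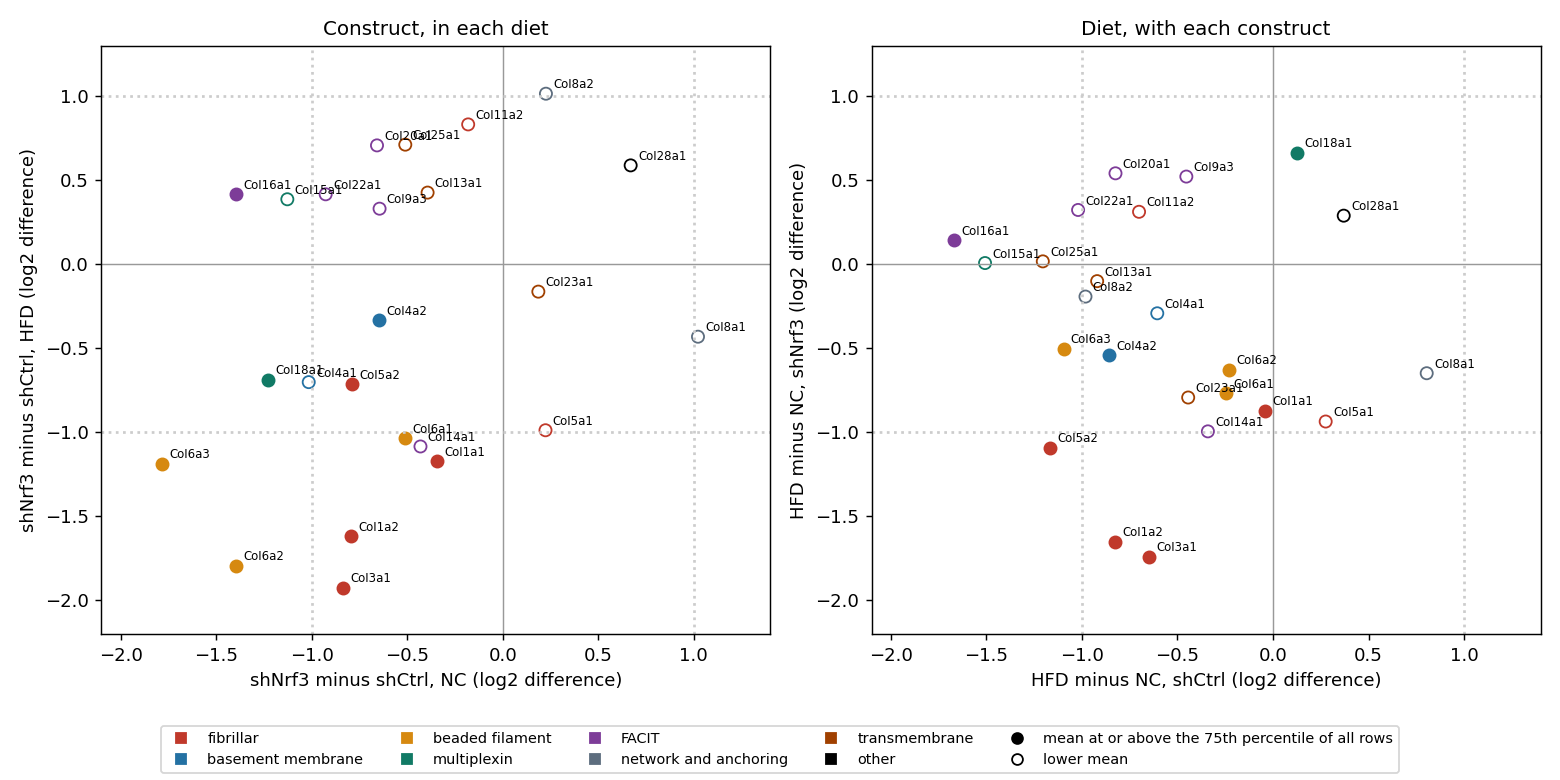
Log2 differences of the 24 genes past the filter, for the construct in NC against HFD (left) and for the diet with shCtrl against shNrf3 (right), with color for the class, filled points for the 10 brighter genes and dotted lines at 2-fold. Col6a2 and Col6a3 lie beyond 2-fold lower on both axes of the left panel and Col5a2 on both axes of the right panel.

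Between diets, more collagen genes read lower than higher on HFD with each construct. Below 0 were 20 of the 24 with shCtrl and 15 with shNrf3, against 3385 and 5296 of all 10021 genes past the filter. Of the 10 brighter genes 3 were 2-fold or more lower with shCtrl and 3 with shNrf3, against 1.99% and 4.46% of the 5475 genes of that level, and 0 were higher with either, against 15.7% and 0.84%. With shCtrl 6 of 24 (25%) were 2-fold or more lower, against 3.9% of all genes, and 0 were higher, against 14.6%. The 6 were Col16a1, Col15a1, Col25a1, Col5a2, Col6a3 and Col22a1, of which Col15a1, Col25a1 and Col22a1 are dim. With shNrf3 3 (12.5%) were lower, the fibrillar genes Col3a1 (-1.74), Col1a2 (-1.65) and Col5a2 (-1.09), against 5.03% of all genes, and 0 were higher, against 1.87%. The medians of the 24 were -0.67 and -0.40, beside 0.26 and -0.03 over all genes. The type I and III genes differed by -0.04 (Col1a1), -0.83 (Col1a2) and -0.65 (Col3a1) with shCtrl and by -0.87, -1.65 and -1.74 with shNrf3. Other scalings raised the count with shCtrl, to 11 after cyclic loess or quantile scaling and 12 after centring, where 6.19%, 6.93% and 8.47% of all genes were lower.

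Col5a2 alone was 2-fold or more lower on HFD with both constructs, 1 of 24 genes, against 0.539% of all genes, and 0 were higher with both, against 0.359%. Of the 24 genes 13 lay below 0 with both constructs and 2 (Col18a1 and Col28a1) above, against 17.2% and 30.5% of all genes. Below 0 with both constructs were 8 of the 10 brighter genes, all but Col16a1 and Col18a1, where 15.1% of the 5475 genes of that level were. With shNrf3 Col5a2 came under 2-fold after centring and after quantile scaling (-0.99 in each) and with readings raised to the control 95th percentile (-0.11), which ended the call for both constructs. The diet comparisons of the 2 constructs share no array, but each shares 1 array with each construct comparison, so construct and diet differences are not independent of each other.

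With limma, construct and diet were fitted as additive terms over all 10021 genes, which called 0 collagen genes and 0% of all genes for either term at an adjusted p of 0.05 (Benjamini-Hochberg). For the construct 5 of 24 collagen genes had an unadjusted limma p under 0.05, where 4.46% of all genes did, and all were lower with shNrf3. These were Col6a2 (averaged difference -1.59 ± 0.39, SE, adjusted p 0.936), Col6a3 (-1.48 ± 0.40), Col3a1 (-1.38 ± 0.43), Col1a2 (-1.21 ± 0.41) and Col18a1 (-0.96 ± 0.39). For the diet 3 did, where 2.91% of all genes did, and all were lower on HFD. These were Col1a2 (-1.24 ± 0.41, adjusted p 0.999), Col5a2 (-1.13 ± 0.38) and Col3a1 (-1.19 ± 0.43). Over the 7 limma fits run, each with 0 collagen genes called, the smallest adjusted p of a collagen gene ran from 0.181 to 0.94 for the construct and from 0.46 to 1 for the diet. Among all genes the fit called 0.0897% for the construct and 0.00997% for the diet after cyclic loess, 0.269% and 0.11% after centring, and 0% in the other fits. Its error comes from the construct by diet interaction alone, with 1 residual degree of freedom, so spread among tumors of 1 group is not part of it.

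The 14 dimmer genes took the side of the brighter ones in the comparisons that hold the shCtrl-NC array, but not clearly in those without it. Their median construct difference was -0.41 in NC and 0.40 in HFD, and their median diet difference -0.65 with shCtrl and -0.05 with shNrf3. The 1718 negative control rows in the same range of mean level (5.76 to 8.23) had medians of -0.23, 0.11, -0.19 and 0.17 in those comparisons, against 0.05, -0.12, 0.16 and -0.03 for the 4124 named genes in that range. The dimmer collagen genes thus shared the sign of the control rows, and not that of the named genes, in the first 3 comparisons. The brighter collagen genes had medians of -0.81, -1.10, -0.74 and -0.70. At levels of 8 and above, the medians of the control rows by level bin ran from -0.70 to -0.11 for the construct in NC, from 0.19 to 0.77 for the construct in HFD, from -0.85 to -0.12 for the diet with shCtrl and from 0.18 to 0.79 for the diet with shNrf3. The brighter collagen genes and the control rows thus had the same sign in the comparisons that hold the shCtrl-NC array and opposite signs in those without it. How far background signal enters these readings was not tested.

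**Figure D3:**
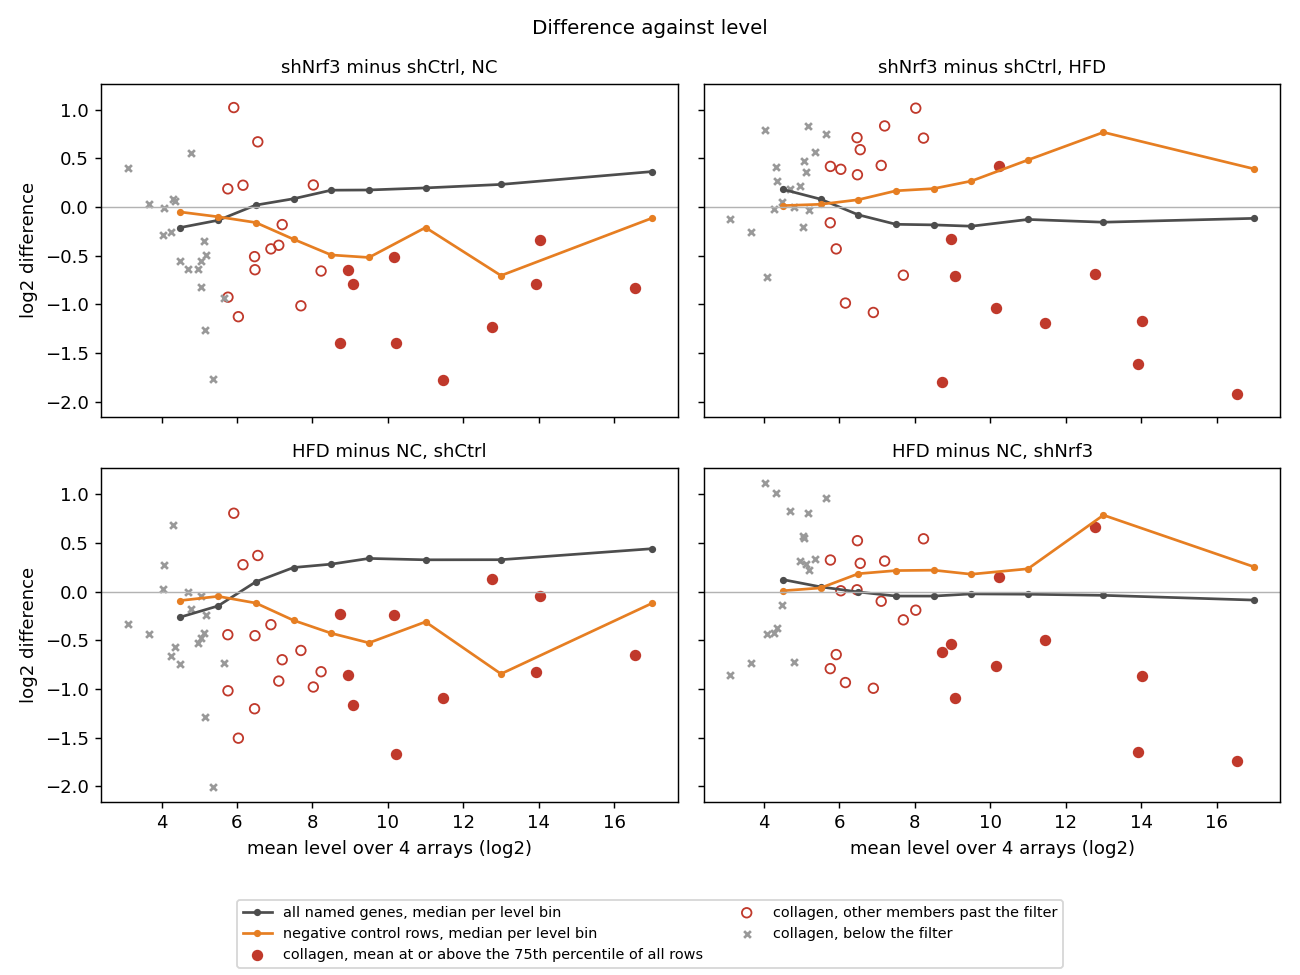
Log2 difference (vertical axis) of the 42 collagen genes against their mean level over 4 arrays, in each of the 4 comparisons, with lines for the median of all named genes and of the negative control rows in bins of level. Filled points (10 brighter genes) lie below both lines for all members in the HFD construct panel except Col16a1, at 0.42, which lies above the median of all genes.

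Among the dimmer genes some still had large readings of difference. Col8a1, a network-forming chain of vessel walls, read 5.37 on shCtrl-NC, below its control median, 6.39 on shNrf3-NC, 6.17 on shCtrl-HFD and 5.74 on shNrf3-HFD. With that reading raised to the control median its difference in NC was still 2-fold or more. Its partner Col8a2 read 8.20, 8.43, 7.22 and 8.24 and stood apart by being low on shCtrl-HFD alone. Col28a1 read 6.05, 6.72, 6.42 and 7.01 and was the one gene past the filter above 0 in all 4 comparisons. Col14a1, a FACIT chain of fibroblasts, read 7.45, 7.02, 7.11 and 6.02 and, like the type I and III genes, was lowest on shNrf3-HFD. The transmembrane gene Col25a1 (7.02, 6.51, 5.81 and 6.53) and the FACIT genes Col20a1 (8.63, 7.97, 7.81 and 8.51) and Col9a3 (6.78, 6.14, 6.33 and 6.66) read highest on shCtrl-NC, next on shNrf3-HFD and lower on the other arrays. The other dimmer genes were Col13a1 (6.64 to 7.56), Col22a1 (5.38 to 6.40) and Col23a1 (5.37 to 6.16).

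The machinery that folds, modifies and exports collagen had differences nearer 0 than the brighter chains. Of 23 listed genes 19 passed the filter, with median construct differences of 0.13 in NC and -0.10 in HFD and median diet differences of 0.09 with shCtrl and -0.44 with shNrf3. None of the 19 was 2-fold or more lower by construct, against 4.52% of all genes in NC and 7.13% in HFD. In NC 4 were higher, against 13.3% of all genes. These were the disulfide isomerase gene P4hb (1.52), the cyclophilin gene Ppib (1.28), Mia3 (1.18), which helps load collagen into transport carriers, and Crtap (1.06). Serpinh1, the collagen chaperone HSP47, read 11.62, 11.66, 11.21 and 10.61. Its lowest reading was on the array where the type I and III genes were lowest. On HFD with shCtrl 3 of the 19 were higher (P4hb, Mia3 and P3h1), against 14.6% of all genes, and 1 was lower, the prolyl hydroxylase gene P3h3 (-1.25), against 3.9%. With shNrf3 3 were lower, P4ha3, Crtap and Serpinh1 (-1.13, -1.18 and -1.04), against 5.03%, and 0 were higher, against 1.87%. P4ha2, a prolyl hydroxylase of the main collagen sites, differed by -0.98 and -0.74 between diets, and the COPII coat gene Sec23a by -0.42 and -0.89 between constructs. P3h1 read 5.32 on shCtrl-NC, below that array's control median, and 6.11 to 6.86 on the others.

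Of the 9 processing and crosslinking genes past the filter, lysyl oxidase stood out by diet. Lox, which crosslinks collagen and elastin, read 13.14, 13.32, 11.42 and 11.44. The HFD arrays thus lay below the NC arrays with either construct (-1.73 and -1.88), and the construct differences were 0.17 and 0.02. Loxl1 differed by -0.67 and -1.34 between diets. Bmp1, the procollagen C-proteinase, differed by -0.37 in NC and -1.05 in HFD between constructs. It was the only one of the 9 that was 2-fold or more lower by construct, against 7.13% of all genes in HFD. Loxl3 was higher with shNrf3 in NC (1.32) and differed by -0.64 in HFD. The procollagen C-proteinase enhancer gene Pcolce2 differed by -0.16 and -0.70 between constructs, and the dim protease gene Adamts14 by -0.88 and -0.17 between diets.

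Partners of type IV collagen in basement membranes differed among themselves by construct. Of 13 past the filter, 4 in NC and 3 in HFD were 2-fold or more lower, against 4.52% and 7.13% of all genes, and 0 were higher, against 13.3% and 2.55%. Their medians were -0.47 and -0.64. The laminin chain gene Lama3 differed by -1.83 and -1.24, Pxdn, the peroxidase that crosslinks type IV collagen, by -1.88 and -0.67, and the linker nidogen gene Nid1 by -0.89 and -1.43. Between diets the laminin chain gene Lama4 differed by -0.69 and -0.87, while the dim Nid2 read 5.26 on shCtrl-HFD, below that array's control median, and 5.52 to 6.44 on the others. In the other direction in NC, the dim genes Lama5 and Lamb2 differed by 0.68 and 0.31 by construct, but in HFD they differed by 0.002 and -0.50. The matrix protein gene Sparc, whose product binds collagen, differed by 0.24 and -1.28. The 5 collagen receptor and uptake genes past the filter had medians of -0.07 and -0.18, and Lair1, an inhibitory collagen receptor of leukocytes, was the one 2-fold or more higher (1.66 in NC and 1.13 in HFD). The integrin genes Itgb1 and Itga2 differed by -0.07 and -0.52 in NC and by -0.29 and 0.38 in HFD, and the receptor kinase gene Ddr2 by -0.22 and -0.18.

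Markers of cells that make collagen followed the chains in part. Fibroblast markers other than collagens (13 of 14 measured, all 13 past the filter) had a mean level of 10.26 on shCtrl-NC, 9.93 on shNrf3-NC, 9.81 on shCtrl-HFD and 8.60 on shNrf3-HFD, and were thus lowest on the array where the type I and III genes were lowest. By construct 3 of the 13 were 2-fold or more lower in NC, against 4.52% of all genes, and 7 in HFD, against 7.13%, with medians of -0.41 and -1.37. By diet 3 were with shCtrl, against 3.9%, and 7 with shNrf3, against 5.03%. In NC 6 of the 13 (Dcn, Dpt, Pdpn, Fbln1, Fbln2 and Mfap5) were instead higher with shNrf3, by 0.14 to 0.86. Over all 10021 genes past the filter, 5810 lay above 0 in that comparison and 4204 below. All 10 brighter collagen genes lay below 0 there. The proteoglycan gene Lum had the largest construct difference in HFD (-3.03, and -1.96 in NC), while Fap, at 7.15 to 7.56, differed by -0.41 and 0.09. The matricellular gene Postn differed by -2.13 and -1.41 by construct, the receptor gene Pdgfrb by -1.40 and -1.92, and the proteoglycan gene Dcn by 0.14 and -2.15. Endothelial markers (7 of 10 past the filter) had mean levels of 8.77, 7.59, 8.31 and 7.42, with the shNrf3 arrays below the shCtrl arrays in both diets. The same held for 11 of the 24 collagen genes, type VI and Col4a1 among them, and for 26.5% of all genes. Largest by construct were the differences of the junction gene Cdh5 (-1.97 and -1.61) and of Kdr (-1.56 and -1.57) and Flt1 (-1.25 and -1.87), both receptors for VEGF. In the other direction in HFD, Esam differed by 0.39 by construct, and by -1.26 in NC. By diet Emcn and Esam differed by -1.03 and -1.17 with shCtrl and by -0.23 and 0.48 with shNrf3. Mural and smooth muscle markers (5 of 8) had 9.51, 8.44, 8.46 and 8.51, with shCtrl-NC above the rest, as for Col16a1 and Col15a1. Their median construct differences were -1.17 in NC and 0.25 in HFD. Mcam and Rgs5 differed by -1.94 and -1.17 by construct in NC and by -0.65 and -0.46 in HFD. Acta2, Tagln and Kcnj8 instead differed by 0.45, 0.25 and 0.66 in HFD. Kcnj8 read 5.20 on shNrf3-NC, below that array's control median, and 5.58 to 6.49 on the others. Tagln differed by -0.81 and -0.16 by diet. In bulk tumor RNA, fewer cells of a type and less RNA per cell cannot be told apart, and the part of these cells in the collagen differences was not tested.

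Markers of the tissues around the tumor took other courses. Adipocyte markers (6 past the filter) had medians of 1.92 and -1.33 by construct in NC and HFD, so in NC they lay opposite to the brighter collagen genes and in HFD on the same side. Between diets their medians were 1.06 with shCtrl and -2.23 with shNrf3, where the brighter collagen genes had -0.74 and -0.70. The fat genes Adipoq, Retn and Cidec differed by 3.35, 5.23 and 2.29 by construct in NC, while Plin1 differed by -0.38. Of the 8 skeletal muscle markers past the filter, 4 (Acta1, Myl1, Myh4 and Myh8) read 10.21 to 12.51 on shNrf3-NC and below the control median on shCtrl-NC and shNrf3-HFD, so they passed the filter through the array where they were high, and no difference is given for them. Tnnt3, Tnni2 and Ckm, above the control median on all 4 arrays, differed by 1.68, 2.54 and 2.28 by construct in NC and by -1.75, -0.32 and 0.03 in HFD. Of the 9 skin markers 3 passed the filter, and of these Krt10 and Krt1 read 9.50 and 7.37 on shCtrl-HFD and lay below the control median on both shNrf3 arrays, while Krt14 differed by -1.17 and -0.78 by construct. Of the 8 epithelial and renal markers 6 passed the filter, with medians of -0.37 and -0.59 by construct and 0.66 and 0.49 by diet, and the largest were Epcam (-1.56 and -0.49 by construct) and Lcn2 (1.88 and 0.96). Macrophage markers (7 past the filter) had medians of 1.07 and 0.43 by construct and 0.50 and -0.19 by diet. By construct Itgam, C1qa and Fcgr1 differed by 1.90, 1.83 and 1.83 in NC and by 1.17, 0.13 and 0.43 in HFD. Cd14 differed by 1.07 in NC and, alone of the 7 below 0, by -0.31 in HFD. On HFD with shCtrl C1qa and Fcgr1 were 2-fold or more higher (1.51 and 1.53), against 14.6% of all genes. Mrc1 alone lay below 0 there (-0.60). With shNrf3 Mrc1 was 2-fold or more lower, against 5.03% of all genes, and 0 were higher. Cartilage and bone markers (2 of 6) were Sox9 (0.14 and -1.88 by construct) and Ibsp (1.39 and 1.55), and of the 5 Schwann and nerve markers 3 were measured and 0 passed. The part of these tissues in the collagen readings was not tested.

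**Figure D4:**
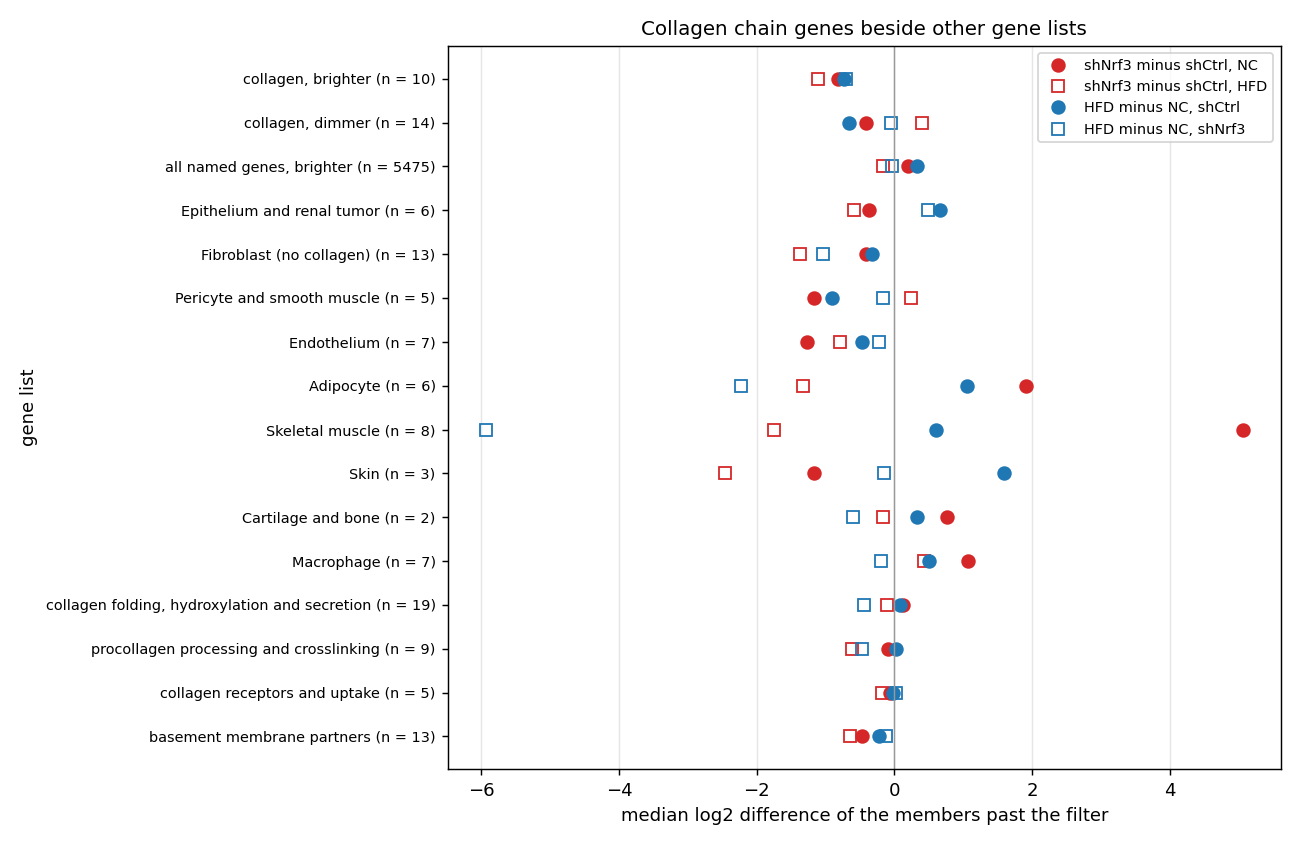
Median log2 difference (horizontal axis) of the members past the filter for the brighter and the dimmer collagen genes, all brighter named genes and the other gene lists, in each of the 4 comparisons. The brighter collagen genes lie below 0 in all 4 (-1.10 to -0.70), as do the fibroblast and endothelial markers, while the folding and export genes lie between -0.44 and 0.13. The muscle and skin medians include readings below the control median. They hold Acta1, Myl1, Myh4 and Myh8, which passed the filter through shNrf3-NC, and Krt10 and Krt1, which passed through shCtrl-HFD. No difference is read from the muscle and skin medians.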

How the data were processed

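The deposited log2 levels come from 100 ng of total RNA per array, per the labels, and the submitters' processing notes name RMA in Affymetrix Expression Console. No version or genome build is given in the sources used here. The 28846 rows hold 22206 transcript rows, of which 19572 have 1 gene symbol in the platform annotation, 0 have several and 2634 have none. All 19572 Entrez IDs matched the RefSeq gene table of GRCm38.p6, used for current symbols. For 55 of the 19505 genes, which have several probe sets, the one with the top mean level was used. Genes with a mean of 5.73 or more, the median of all rows, were kept (10021). Differences were taken between arrays, and those of 1 or more were counted. Negative control rows served as background. limma 3.58.1 in R 4.3.3 fitted construct and diet over all kept genes (lmFit and eBayes, tested on simulated data). Alternatives were cyclic loess, centring, quantile scaling, other filters, a floor for dim readings, the mean of probe sets and 1.5-fold.

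The members, classes and other lists were chosen with earlier results of these data known. The major chains, members past 2-fold in 1 direction in both comparisons of a kind and the 3 with the largest difference each way in each comparison are printed on all arrays, or by their range. Of each other list the 3 genes with the largest mean construct and the 3 with the largest mean diet difference are named. Serpinh1, Sparc, Fap, Crtap, Mia3, P4ha3, Lama5, Lamb2, Dpt, Pdpn, Fbln1, Fbln2, Mfap5, Tnnt3, Tnni2, Ckm, Cd14, Pax8 and Pax2 were added after their values were seen. No sequence is printed.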

Additional observations from a re-analysis of the deposited data

Results flagged for a closer look

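The FACIT gene Col20a1 differed by -0.66 between constructs in NC and by 0.71 in HFD, 1.5-fold or more in opposite directions. The type VIII gene Col8a1 differed by 0.80 between diets with shCtrl and by -0.65 with shNrf3, where the first value takes a reading just below the control median. With 1 array per group neither contrast was tested. Both genes stayed below the level that 95% of control rows do not exceed, on every array. They are the only 2 of the 24 genes past the filter with 1.5-fold differences of opposite sign between diets or between constructs.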

How the results depend on the processing

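No paired analysis was possible because each group has 1 array, and for the same reason no array could be left out of a group. Over 7 additive limma fits 0 collagen genes were called, with 5 to 6 at an unadjusted p under 0.05 for the construct and 3 to 4 for the diet. Counts of genes 2-fold or more lower or higher moved by over 1.5 times as follows, with the share of all genes in the same setting given as a percentage. By construct in NC (6 lower and 1 higher), 0 were higher after centring (9.2%) and with a filter at the 75th percentile (15.3%). The same held with a filter at the control 95th percentile (16%, added after the data were seen) and with dim readings set to that percentile (5.98%). Under the last 2 settings 3 were lower (3.04% and 1.26%). By construct in HFD (7 and 1), 3 were lower and 2 higher after centring (3.82% and 4.8%). Under both stricter filters and with dim readings set to the floor 0 were higher (1.74%, 1.77% and 0.699%). By diet with shCtrl (6 and 0), 11 were lower after cyclic loess (6.19%) or quantile scaling (6.93%) and 12 after centring (8.47%). With the 75th percentile filter or the floor 3 were lower (1.99% and 0.828%), and 2 with the control 95th percentile filter (1.84%). By diet with shNrf3 (3 and 0), 2 were higher with no filter (3.78%). At 1.5-fold 13 were lower and 2 higher by construct in NC (13.5% and 26.8% of all genes), 11 and 5 in HFD (20.8% and 9.12%), 14 and 1 by diet with shCtrl (10.7% and 31.2%) and 10 and 1 with shNrf3 (14.4% and 8.84%). Stricter filters test fewer genes, and for the scalings the cause was not tested. The floor differs between arrays, so dim genes then take the difference of the floors themselves, which ended the 2-fold calls of Col6a2 in both diets and of Col5a2 with shNrf3 and turned Col8a1 in NC to -0.35, Col14a1 in HFD to 0.17 and the medians of the 24 genes to 0.17 by construct in HFD and 0.13 by diet with shNrf3. With no filter the construct median in HFD was 0.026, with 18 more genes counted. Among all genes past the filter the share of 2-fold calls that were higher was 74.7%, 26.4%, 79.0% and 27.1% in the order of comparisons above, and 53.9%, 55.7%, 46.1% and 41.7% after centring. Signal over background limits the 14 dimmer genes.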
